A study of Sus scrofa with 36 samples.

Results

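The imprinted fetal growth genes IGF2, IGF2R, PLAGL1 and PEG3 were chosen by name, with earlier results of these data known, and were followed in pig hearts on postnatal days 1, 3, 7 and 28 (P1, P3, P7 and P28). Of the 4 genes, 3 had a row in the gene table, and those 3 passed the filter on low counts together with 5526 of the 9815 genes listed. IGF2 was not analysed here. Across the 4 ages, IGF2R, PLAGL1 and PEG3 were detected in every library. None of the 3 was called changed in any comparison of ages, in which 0.0543% to 18.8% of all genes were called. In the small RNA libraries of these ages, 11 of 14 miRNAs of imprinted loci were lower at P28 than at P1. Of all miRNA entries 22% were lower, and without the library P1-6 the count was 5 of 14. All of the 14 but miR-335 are of a single region, DLK1-DIO3, so they do not count as 14 separate loci.

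Imprinted genes are transcribed mainly from the copy inherited from one parent, and many of them set the rate of growth before birth. IGF2 encodes insulin-like growth factor II, which signals for growth through the receptor IGF1R. IGF2R, the cation-independent mannose 6-phosphate receptor, binds the same ligand and carries it to the lysosome without a growth signal, and also sorts newly made lysosomal enzymes. PLAGL1 and PEG3 encode zinc finger DNA-binding proteins, of which PLAGL1 is known to act on other imprinted genes and PEG3 has been linked to growth and cell survival. In many organs of the mouse, transcripts of this network fall as growth slows after birth.

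The study compared hearts of domestic Yorkshire pigs of both sexes, frozen after a rinse in cold saline, to find circular and other RNAs that change while the heart muscle cells stop dividing, and no treatment is named for any group. The values described here come from the batch sequenced at CD Genomics, with 3 libraries at each of the 4 ages for total RNA and 3 for small RNA. Nothing in the labels beyond the age separates the groups, and the age is in each case the day after birth. Libraries are named by age and by the number in the column name (P3-5 is the P3 library numbered 5).

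Counts on the listed genes, all of chromosomes 1, 2, 6 and 13, summed to between 8887176 and 14883849 per library, and miRNA counts to between 2921128 and 7917259. The library P3-5, which had the fewest gene counts, stood apart from its age. It had 23.7% of genes at least 1.5-fold outside both other pigs of its age, against 4.27% to 13.3% in the other libraries. By median correlation with the other libraries P3-5 was not the lowest, at 0.960 against 0.955 to 0.978. The members' differences between ages that involve P3 are given with and without P3-5. Levels are given as normalised CPM, the read counts per 1000000 counts on the tested genes (or miRNA entries) of the library, after TMM scaling. They are not shares of the whole transcriptome. The tissue label was checked with heart muscle genes, of which MYBPC3, myosin binding protein C, was at 12356 to 21835 CPM and TNNI3, cardiac troponin I, at 8664 to 15874 CPM. Of the 8 heart muscle genes tested, 2 were higher at P28 than at P1, CKM (from a mean of 4134 to 12058 CPM) and MYBPC3 (14521 to 21492 CPM), and 1 was lower, ACTC1 (21833 to 14383 CPM). Markers of other cell types were measured too. FBN1 and TCF21, the 2 fibroblast markers tested, were both lower at P28 than at P1 by edgeR's quasi-likelihood test (log2 fold changes of -1.82 and -1.05, adjusted p = 6.05e-05 and 0.000678), as was TBX18, the epicardial marker tested (-0.83, adjusted p = 0.00390). Of 4 endothelial markers 1 was higher, TEK (0.53, adjusted p = 0.0356), the other 3 were not called and had negative log2 fold changes, and the median of the 4 was -0.31. None was called of the rest, namely 0 of 2 pericyte and smooth muscle, 0 of 3 leukocyte, 0 of 1 erythroid and 0 of 1 adipocyte markers, in a comparison in which 15.3% of all genes were called. The hearts were sequenced as bulk tissue, in which fewer cells of a type and less RNA per cell cannot be told apart.

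IGF2R (ENSSSCG00000004044) lies at chr1:7368103-7472548, PLAGL1 (ENSSSCG00000004127) at chr1:21304042-21370614 and PEG3 (ENSSSCG00000003326) at chr6:61285456-61292885. All 3 are annotated as protein coding, and the coordinates are those of the gene table, which names no genome build. The transcript lengths that the table gives are 9015 bases for IGF2R, 3305 for PLAGL1 and 4257 for PEG3. Per length, IGF2R was the most abundant, at a mean of 51.8 CPM per kilobase over the 12 libraries, above 84.5% of the 4591 protein-coding genes tested. PEG3, at 21.7 CPM per kilobase, and PLAGL1, at 20.7, were close to each other, above 64.3% and 62.7% of these genes. The lowest raw count of any of the 3 genes in any library was 593, for PLAGL1, so that counting error was small beside the spread between pigs.

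IGF2R was measured at 452, 401 and 323 CPM in the P1 libraries, at 358, 864 and 574 CPM at P3, at 393, 486 and 374 CPM at P7, and at 410, 485 and 481 CPM at P28. The P3 libraries were the most spread, with 2 of them above every library of the other ages and 1 below most of them, and the value of 864 CPM came from P3-5. The means were 392 ± 65.5, 599 ± 254, 417 ± 60.2 and 458 ± 41.9 CPM in order of age (SD, n = 3 each). From the lowest to the highest mean the order was P1, P7, P28 and P3, and the ranges of each pair of neighbours in this order overlapped.

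PLAGL1 was the steadiest of the 3, with a ratio of 1.64 between its highest and lowest library, against 2.68 for IGF2R and 2.58 for PEG3. It was measured at 72.2, 61.4 and 60.5 CPM at P1, at 85.4, 73.9 and 57.7 CPM at P3, at 53.3, 61.3 and 57.6 CPM at P7, and at 87.1, 62.2 and 87.1 CPM at P28. All P28 libraries were above all P7 libraries, though the P28 library at 62.2 CPM was barely so. The means were 64.7 ± 6.56, 72.3 ± 13.9, 57.4 ± 4.01 and 78.8 ± 14.4 CPM (SD, n = 3 each), in the order P7, P1, P3 and P28 from low to high, and neighbours in that order overlapped.

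PEG3 was measured at 85.0, 62.7 and 68.0 CPM at P1, at 87.3, 162 and 109 CPM at P3, at 90.7, 84.7 and 63.0 CPM at P7, and at 108, 96.8 and 90.0 CPM at P28. Every P3 and every P28 library was above every P1 library, and the highest value was again that of P3-5. The means were 71.9 ± 11.7, 119 ± 38.5, 79.5 ± 14.6 and 98.1 ± 8.90 CPM (SD, n = 3 each). In the order P1, P7, P28 and P3, the ranges of neighbours overlapped.

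**Figure D1:**
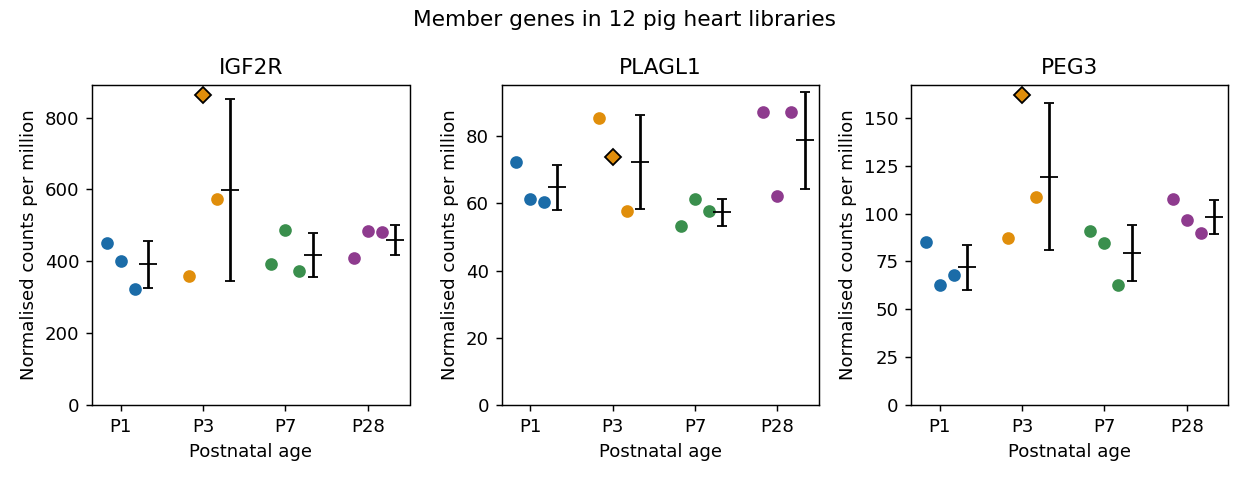
Normalised CPM (vertical axes, from 0) of IGF2R, PLAGL1 and PEG3 in each of the 12 heart libraries by postnatal age (horizontal axes), with points for libraries, a diamond for P3-5 and a black bar for the mean with its SD at n = 3. IGF2R and PEG3 reach their highest values in P3-5 (864 and 162 CPM), and the mean of each gene at P28 is above its means at P1 and P7.

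The comparison of P1 with P28 asked whether these genes were lower once the early growth of the heart was over. None was. The P28 level was higher than the P1 level by 0.23 ± 0.25 on the log2 scale for IGF2R (SE), by 0.28 ± 0.17 for PLAGL1 and by 0.45 ± 0.22 for PEG3, and edgeR's adjusted p-values were 0.583, 0.286 and 0.179. Among all genes tested, 15.3% were called in this comparison at an adjusted p under 0.05. The 95% intervals of the fold at P28 ran from 0.804 to 1.70 for IGF2R, from 0.940 to 1.58 for PLAGL1 and from 0.987 to 1.89 for PEG3. A fall to 0.80 of the P1 level or lower was thus outside the interval of each gene. The PEG3 libraries did not overlap between P1 and P28, as was so, with P28 the higher, for 22.5% of all genes tested.

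Between P1 and P3, IGF2R was higher at P3 by 0.61 ± 0.25 on the log2 scale (SE; 1.53-fold) and PEG3 by 0.73 ± 0.22 (1.66-fold), while PLAGL1 differed by 0.16 ± 0.17. The adjusted p-values of edgeR were 0.287, 0.196 and 0.660, so none was called, in a comparison in which 0.0543% of all genes were. For PEG3 the P3 libraries were all above the P1 libraries, a pattern found in 8.41% of genes. With P3-4 left out, the difference was larger, 0.87 for IGF2R and 0.91 for PEG3 (edgeR adjusted p = 0.0585 for each). Without P3-5, the difference became 0.25 for IGF2R, 0.45 for PEG3 and 0.14 for PLAGL1 (adjusted p = 0.718, 0.420 and 0.833). For IGF2R and PEG3 a large share of the difference thus came from P3-5. P3-5 also had the highest summed level of the pericyte and smooth muscle markers NOTCH3 and PDGFRB, at 1185 CPM, against 425 CPM in P3-4, 566 CPM in P3-6, 349 to 419 CPM at P1, 357 to 552 CPM at P7 and 209.5 to 458 CPM at P28. P3-6 was second highest for IGF2R, and narrowly so for PEG3 (109 against 108 CPM in P28-4) and for these markers (566 against 552 CPM in P7-5). P28-4, with PEG3 at 108 CPM, had the lowest marker sum, 209.5 CPM, and P7-5 had PEG3 at 84.7 CPM. P3-5 was the highest of the 12 libraries too for the adipocyte marker LIPE, at 88.6 CPM against 21.0 to 62.5 CPM in the others, and for the erythroid marker EPB42, at 8.74 CPM against 0.562 to 6.65 CPM. Each was the only marker of its list tested, and the other adipocyte markers listed in the table had at most 14 counts in any library. The part of cell makeup in the IGF2R and PEG3 values was not tested.

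Between P1 and P7, the differences were 0.09 ± 0.25 for IGF2R, -0.17 ± 0.17 for PLAGL1 and 0.14 ± 0.22 for PEG3 on the log2 scale (SE), with edgeR adjusted p-values of 0.915, 0.714 and 0.825 against 2.01% of genes called. The direction for IGF2R turned without P1-6 or without P7-5. Between P7 and P28, PLAGL1 showed its largest difference, higher at P28 by 0.46 ± 0.17 (1.37-fold, 95% interval 1.06 to 1.78, edgeR adjusted p = 0.0835), and IGF2R and PEG3 were higher by 0.13 ± 0.25 and 0.30 ± 0.22 (adjusted p = 0.745 and 0.360). In this comparison 18.8% of all genes were called, and 23.7% had all P28 libraries above all P7 libraries, as PLAGL1 had. Without P28-5, the lowest of the P28 libraries, the PLAGL1 difference was 0.61 with an adjusted p of 0.0397. Against the mean of the later ages, P1 was lower by 0.31 ± 0.21 for IGF2R, 0.09 ± 0.14 for PLAGL1 and 0.44 ± 0.18 for PEG3 (edgeR adjusted p = 0.478, 0.784 and 0.234), with 2.46% of genes called. Without P3-5 these differences were 0.19, 0.09 and 0.35 (adjusted p = 0.530, 0.784 and 0.181).

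**Figure D2:**
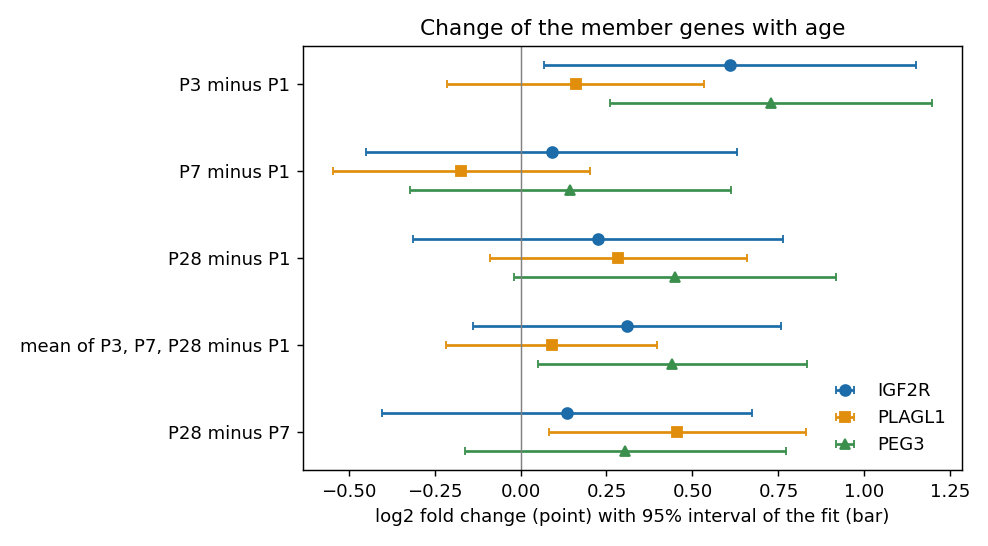
Log2 fold changes of IGF2R, PLAGL1 and PEG3 (horizontal axis; positive is higher at the later age) in the 5 comparisons of ages (vertical axis), with points for the edgeR estimates and bars for their 95% intervals. Of the 15 estimates, 14 are above 0, and the exception is PLAGL1 between P1 and P7 at -0.17.

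Before adjustment, 2 of the 3 genes passed the threshold of 0.05 between P1 and P3, 1 between P1 and the later ages, 1 between P7 and P28 and 0 in the other comparisons, and DESeq2 gave the same counts before adjustment and 0 calls after it. Of all genes, DESeq2 called 2.21% between P1 and P3, 6.59% between P1 and P7, 19.7% between P1 and P28, 5.27% between P1 and the later ages and 23.4% between P7 and P28. The study used for its lists the thresholds of an unadjusted p of at most 0.05 and a log2 fold change beyond 0.5. They named IGF2R and PEG3 as higher at P3 than at P1 and no member elsewhere. With P3-5 left out, IGF2R at 0.25 and PEG3 at 0.45 were under the 0.5 of these thresholds. These thresholds named 10.6% of all genes between P1 and P3, 11.7% between P1 and P7, 23.1% between P1 and P28, 9.41% between P1 and the later ages and 25.1% between P7 and P28.

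Over the 12 libraries, the log2 CPM of IGF2R and PEG3 rose and fell together, with a Pearson r of 0.827, which was 0.613 without P3-5. PLAGL1 had an r of 0.112 with IGF2R, which turned to -0.0317 without P3-5, and of 0.348 with PEG3 (0.332 without P3-5). These are descriptions over 12 libraries that share ages, depth and cell makeup. The tested genes most like IGF2R were NDST1, an enzyme of heparan sulfate synthesis (r = 0.965), RAPGEF1 (0.958), EPN1, an endocytic adaptor (0.9496), NAPA, a factor of vesicle fusion (0.940), and POMT1, an O-mannosyltransferase (0.939). Without P3-5 their r was 0.832 to 0.905. PLAGL1 was most like TMC1, a channel protein of hair cells (r = 0.907), DYNLT2 (0.870), ENSSSCG00000037372 (0.869), the tRNA deaminase ADAT1 (0.831) and ENSSSCG00000042216 (0.815), and these values moved by little without P3-5 (0.814 to 0.919). PEG3 was most like REXO1 (r = 0.9504), TBC1D13 (0.938), the mitochondrial RNA polymerase POLRMT (0.935), ENSSSCG00000049428 (0.933) and RRP1B (0.925), with 0.841 to 0.900 without P3-5.

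In the chromosomal neighbourhood, within 200 kb on either side and looked at after the members' values were known, no listed gene overlapped any of the 3. Of 13 genes near IGF2R, 8 were tested and 1 was called between P1 and P28, against 15.3% of all genes. It was ACAT2, a thiolase of acetoacetyl-CoA metabolism, at 14.0, 22.3 and 21.5 CPM at P1 and 7.14, 7.49 and 5.91 CPM at P28 (log2 fold change -1.49 ± 0.24, SE, edgeR adjusted p = 0.00176). ACAT2 and TCP1 overlap by their coordinates, and whether reads were counted by strand is not given in the sources used here. The cation transporter gene SLC22A2, which lies between SLC22A3 and IGF2R and is imprinted in the mouse placenta, had at most 3 counts in any library. Near PLAGL1, 5 of 10 genes were tested and none was called between P1 and P28 or between P7 and P28.

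Near PEG3, 6 of 9 genes were tested, of which 1 was called between P1 and P28 and 2 between P7 and P28, against 15.3% and 18.8% of all genes. The lncRNA ENSSSCG00000046890, 8.06 kb beyond the end of PEG3 by coordinates, had an r of 0.866 with PEG3 over the 12 libraries and 0.879 without P3-5. It was measured at 18.3 to 31.6 CPM at P1, 30.1 to 37.1 CPM at P3, 18.6 to 29.1 CPM at P7 and 23.5 to 34.2 CPM at P28, so that P3 lay above P7 and the other pairs of ages overlapped. ENSSSCG00000032669 was lower at P28 than at P1 by edgeR, from a mean of 1.74 to 0.594 CPM (log2 fold change -1.52 ± 0.45, adjusted p = 0.0386). ENSSSCG00000036306, 11.2 kb before PEG3, was lower at P28 than at P7, from 263 to 155 CPM (log2 fold change -0.76 ± 0.21, adjusted p = 0.0242).

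Of the genes of insulin-like growth factor signalling, 3 of the 25 listed were in the table and tested, the receptor IGF1R, the protease PAPPA, which frees growth factor from its binding proteins, and IGF2BP2, an RNA-binding protein of IGF2 mRNA. IGF2BP2 fell, from 174, 123 and 125 CPM at P1 to 92.3, 93.8 and 93.6 CPM at P28. The P28 libraries were all below the P1 libraries, a pattern not counted over all genes in this direction. The log2 fold change was -0.59 ± 0.15 (SE, edgeR adjusted p = 0.0217), where 15.3% of all genes were called. Without P1-4, the highest library, it was -0.41 with an adjusted p of 0.0851, and it also lost its call without any one of the P28 libraries. The list's median log2 fold change between P1 and P28 was -0.20, against 0.00 over all genes tested.

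IGF1R, the signalling receptor for both insulin-like growth factors, was measured at 650, 405 and 357 CPM at P1, 376, 712 and 353 CPM at P3, 448, 512 and 384 CPM at P7, and 1035, 654 and 639 CPM at P28. The P28 libraries lay above all P7 libraries, as was so for 23.7% of all genes. Because of P1-4, the P28 and P1 libraries overlapped narrowly. The difference from P1 to P28 was 0.72 ± 0.30 on the log2 scale (SE, edgeR adjusted p = 0.119). It was 0.45 without P28-4 (adjusted p = 0.389), 1.02 without P1-4 and 0.72 without P3-5 (adjusted p = 0.0477), the one fit without a library that called it. From P7 to P28 it was 0.79 ± 0.30, not called by edgeR (adjusted p = 0.0800, 18.8% of all genes called) and called by DESeq2 (adjusted p = 0.0450, 23.4% of all genes called). PAPPA was at 11.5 to 28.7 CPM at P1 and 11.5 to 18.0 CPM at P28, a difference of -0.20 ± 0.36 whose sign turned without P1-4. Per length, the ratio of IGF2R to IGF1R was 0.490, 0.699 and 0.635 in the P1 libraries, 0.671, 0.854 and 1.14 at P3, 0.617, 0.668 and 0.686 at P7, and 0.279, 0.522 and 0.530 at P28. The P28 ratios were below all P3 and P7 ratios and overlapped those of P1, and no test was made of this ratio.

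Of 49 other imprinted genes listed, 8 were in the table and 7 were tested. Between P1 and P28, 2 fell, 1 rose and 4 were not called, with a median log2 fold change of 0.03 against 0.00 over all genes, of which 15.3% were called. Between P1 and P3 or P7 or the later ages 0 were called by edgeR, with 0, 0 and 1 under an unadjusted p of 0.05, and DESeq2 called 0 as well. Between P7 and P28 the counts were the same as from P1, 2 lower and 1 higher, against 18.8% of all genes called.

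DIRAS3, a Ras-like growth suppressor, had 13, 23 and 17 counts at P1, 13, 9 and 19 at P3, 17, 16 and 14 at P7, and 3, 3 and 4 at P28. Each P28 library was below each of the others, with a log2 fold change from P1 of -2.17 ± 0.41 (SE, edgeR adjusted p = 0.00478), though at this depth the P28 level rests on a handful of reads. MAGEL2, of the Prader-Willi region, had 45, 63 and 59 counts at P1 and 4, 23 and 25 at P28, a log2 fold change of -1.46 ± 0.46 (adjusted p = 0.0491). It lay just inside the threshold and kept its call in 2 of 12 fits that left out a library. Without P28-4, the library with 4 counts, the log2 fold change was -0.97.

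ZNF331, a zinc finger gene, rose from 22.5, 32.5 and 30.1 CPM at P1 to 48.3, 39.8 and 50.4 CPM at P28, by 0.70 ± 0.20 on the log2 scale (SE, edgeR adjusted p = 0.0352). The groups did not overlap, as was so, with P28 the higher, for 22.5% of all genes. The call held in 7 of 12 fits without a library, being lost without P1-4, P1-6, P7-4, P28-4 or P28-6. Of the whole list, 1 of 7 genes was called without P1-4, P1-6, P7-4 or P28-4. NDN, the neighbour of MAGEL2, was at 15.6 to 33.9 CPM at P1 and 15.9 to 25.9 CPM at P28 (-0.20 ± 0.26). UBE3A, imprinted in neurons, was at 782 to 932 CPM at P1 and 807 to 935 CPM at P28 (0.03 ± 0.14).

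SLC22A3, which is imprinted with Igf2r in the mouse placenta, varied more between pigs than between ages, at 68.2, 23.4 and 22.5 CPM at P1 and 141, 24.4 and 24.3 CPM at P28. Its difference of 0.73 ± 0.66 turned to -0.65 without P28-4. MKRN3, an imprinted ubiquitin ligase gene, had 9, 7 and 49 counts at P1 and 37, 94 and 78 counts at P28, with overlapping groups (1.83 ± 1.00 on the log2 scale, edgeR adjusted p = 0.231). The difference was 3.36 without P1-6, the P1 library with 49 counts, and 1.38 without P1-5, and was not called in any fit without a library.

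Of 15 listed regulators of fetal growth genes, 5 were in the table and 3 were tested. ARID4A, a chromatin protein of imprinting control in the mouse, was at 91.3, 92.4 and 79.1 CPM at P1 and at 122, 111 and 119.7 CPM at P28. It rose by 0.42 ± 0.11 on the log2 scale (SE, edgeR adjusted p = 0.0207), where 15.3% of all genes were called. The groups did not overlap, as was so, with P28 the higher, for 22.5% of all genes. The call was lost without P1-6, P28-4 or P28-6. CTCF, the insulator protein that binds the IGF2 control region, was at 152 to 172 CPM at P1 and 173 to 204 CPM at P28 (0.18 ± 0.13, adjusted p = 0.348). TRIM28, a co-repressor that keeps imprints, was at 353 to 360 CPM at P1 and 321 to 371 CPM at P28 (-0.03 ± 0.17), with its highest value in P3-5 at 576 CPM. The fetal RNA-binding proteins LIN28A and LIN28B were not detectable at this depth for testing, at 0 counts in all 12 libraries, where up to 3 counts per library remain possible, and at most 7 counts.

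The sorting pathway that IGF2R serves was represented by 2 of 31 listed genes, with a median log2 fold change of -0.32 between P1 and P28. Neither was called by edgeR in that comparison, 1 had an unadjusted p under 0.05, and DESeq2 called 1, where edgeR called 15.3% of all genes and DESeq2 19.7%. VPS35, of the retromer that recycles the receptor, was at 319 to 340 CPM at P1 and 233 to 258 CPM at P28 (log2 fold change -0.41 ± 0.14, SE, edgeR adjusted p = 0.0583). The groups were separate, a pattern not counted over all genes in this direction. VPS35 was called without P3-5 (adjusted p = 0.00725) or without P3-6. GLB1, lysosomal beta-galactosidase, was at 108, 113 and 123 CPM at P7 and 82.7, 64.1 and 65.8 CPM at P28, lower at P28 by edgeR (log2 fold change -0.69 ± 0.17, adjusted p = 0.0130) where 18.8% of all genes were called, and not called between P1 and P28 (-0.22 ± 0.17). IGF2R itself was not called in these comparisons.

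**Figure D3:**
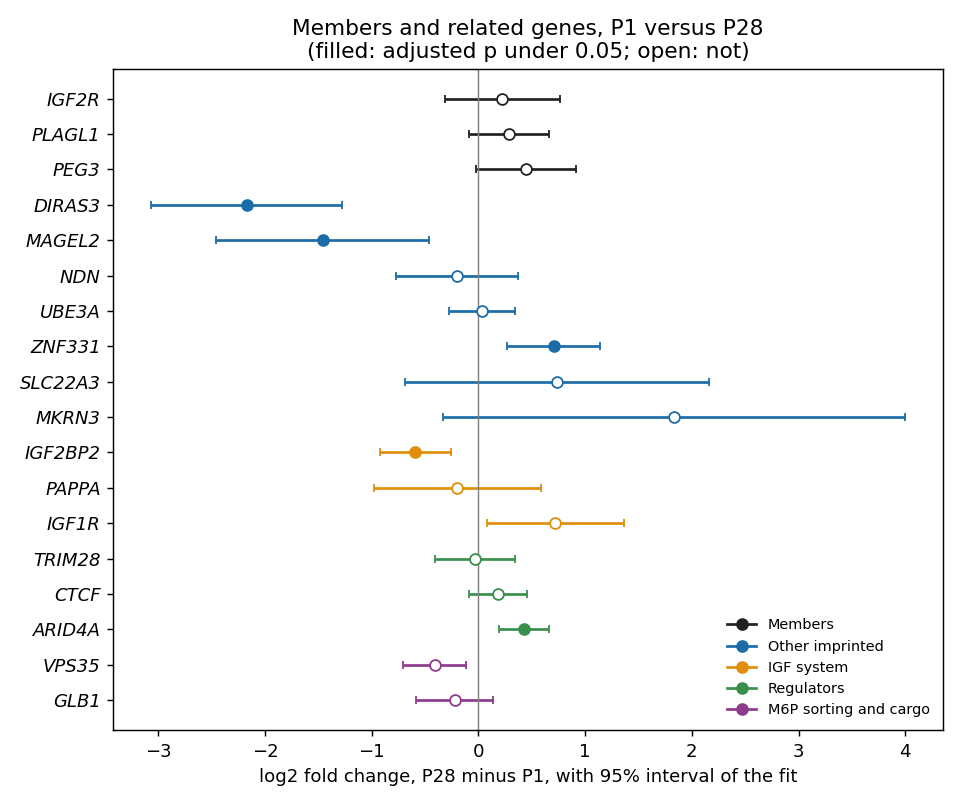
Log2 fold changes from P1 to P28 (horizontal axis, with 95% intervals of the edgeR fit as bars) of the members, other imprinted genes, genes of insulin-like growth factor signalling, regulators, and genes of mannose 6-phosphate (M6P) sorting, 1 gene per line. Filled points passed an adjusted p under 0.05: DIRAS3, MAGEL2 and IGF2BP2 below 0 and ZNF331 and ARID4A above 0, while the 3 members are open points between 0.23 and 0.45.

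Cell cycle genes were listed to set the members beside the growth of the tissue, with no test of a difference in course. Of 33 listed, 10 were in the table, 1 of them under 2 identifiers, which gave 11 entries tested. Between P1 and P7, 2 were higher by edgeR, the mitotic checkpoint kinase gene BUB1B and the replication licensing gene MCM2, and 9 of 11 were higher by DESeq2, where edgeR called 2.01% of all genes and DESeq2 6.59%. Between P7 and P28 all 11 fell, with a median log2 fold change of -1.89 against 0.01 over all genes, of which 18.8% were called. MCM2 was at 175, 229 and 159 CPM at P7 and 34.6, 59.6 and 20.1 CPM at P28 (-2.30 ± 0.32, adjusted p = 0.000785). In this interval, markers of other cell types differed too. By edgeR, 2 of 2 fibroblast, 2 of 4 endothelial, 1 of 1 epicardial and 1 of 1 erythroid markers were lower at P28, 4 of 8 heart muscle genes were higher, and 0 of 2 pericyte and smooth muscle, 0 of 3 leukocyte and 0 of 1 adipocyte markers were called. Their part in these differences was not tested. Over the same interval the 3 members were at 0.13 to 0.46 on the log2 scale, none called. Between P1 and P28, 3 entries were called lower, TYMS, a thymidylate synthesis gene, and both entries of CDC25C, a phosphatase that starts mitosis, against 15.3% of all genes. Counts of 0 were found without P1-5, P1-6, P28-4 or P28-6, and of 5 and 6 without P28-5 and P3-6.

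Imprinted loci also carry miRNAs. The largest group lies in the DLK1-DIO3 region, where a long transcript from the maternal copy holds many small RNA genes, miR-335 lies in an intron of MEST, and miR-483 lies in an intron of IGF2. Of the 45 miRNA names listed, 22 mature forms were in the miRNA table and 14 were tested, 13 of them of the DLK1-DIO3 region, and miR-335. No row for miR-483 was used here. The untested 8 had at most 11 counts in any library.

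Between P1 and P28, 11 of the 14 were lower and 0 were higher, in a comparison in which 22% of all 305 miRNA entries tested were lower. Their median log2 fold change was -0.996, against -0.04 over all entries. DESeq2 called 10, and 22.6% of all entries lower. Leaving out a library changed the count most without P1-6, to 5, and it was 6 without P28-5 and 7 without P28-4. P1-6 was the highest P1 library for 10 of the 14 miRNAs.

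miR-370 showed the largest difference. It was at 110, 108 and 145 CPM at P1, 79.4, 107 and 123 CPM at P3, 94.3, 125 and 87.7 CPM at P7, and 18.2, 12.8 and 12.4 CPM at P28. The first 3 ages overlapped, and every P28 library was far below them, with a log2 fold change from P1 of -3.07 ± 0.24 (8.37-fold lower, edgeR adjusted p = 2.32e-07). miR-127, the most abundant of the group and antisense to the imprinted gene RTL1, was at 711, 726 and 672 CPM at P1, 508, 673 and 670 CPM at P3, 690, 765 and 564 CPM at P7, and 341, 293 and 407 CPM at P28. It too was level until P7 and lower in every P28 library (2.03-fold, log2 fold change -1.02 ± 0.17, adjusted p = 0.000224).

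miR-323 was at 24.6, 18.95 and 33.1 CPM at P1 and 8.19, 7.13 and 6.95 CPM at P28 (3.43-fold lower, edgeR adjusted p = 0.000103). miR-758 was at 65.3, 56.6 and 55.6 CPM at P1, at 78.9, 93.2 and 71.1 CPM at P7 (not called, adjusted p = 0.0874) and at 20.3, 23.7 and 26.3 CPM at P28 (2.52-fold lower than P1, adjusted p = 0.000139). These 4 miRNAs kept their call in all 12 fits without a library. miR-432-5p, miR-335, miR-493-5p and miR-493-3p were lower at P28 by 1.12, 0.97, 1.21 and 1.49 on the log2 scale (edgeR adjusted p = 0.00775, 0.0109, 0.0133 and 0.0155), and each of them lost its call without at least 1 library. Without P1-6, the miR-493-3p difference was -0.895 (adjusted p = 0.134). The other 3 called were miR-411 and miR-382, which kept their call in 9 of 12 fits without a library, and miR-369, which kept it in 4. The miR-382 difference was -0.88 on the log2 scale and -0.48 without P1-6 (adjusted p = 0.188). miR-136, miR-299 and miR-376a-3p were not called, with differences of -0.72 ± 0.29, -0.35 ± 0.34 and -0.31 ± 0.37.

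Between P1 and P3, 0 of the 14 were called (0 also under an unadjusted p of 0.05 and by DESeq2), with 1.31% of all entries lower by edgeR and 2.3% by DESeq2. Between P1 and P7, 1 was lower, miR-136, at 12.8, 7.03 and 14.5 CPM at P1 against 6.90, 6.76 and 4.35 CPM at P7 (edgeR adjusted p = 0.0282), while 16.7% of all entries were lower, and the call was lost without P1-4, P1-6 or any P7 library. Between P7 and P28, 9 were lower against 14.4% of all entries, with a median of -1.10 and 8 to 10 called without a library. Of the 11 called from P1, miR-335 and miR-493-5p were not called from P7 (adjusted p = 0.0754 and 0.0741). Against the mean of the later ages, 3 were lower than at P1, namely miR-127, miR-323 and miR-370, against 12.8% of entries, and 1 without P1-6. The comparisons share the P1 or the P28 libraries, so these counts are not independent of one another.

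**Figure D4:**
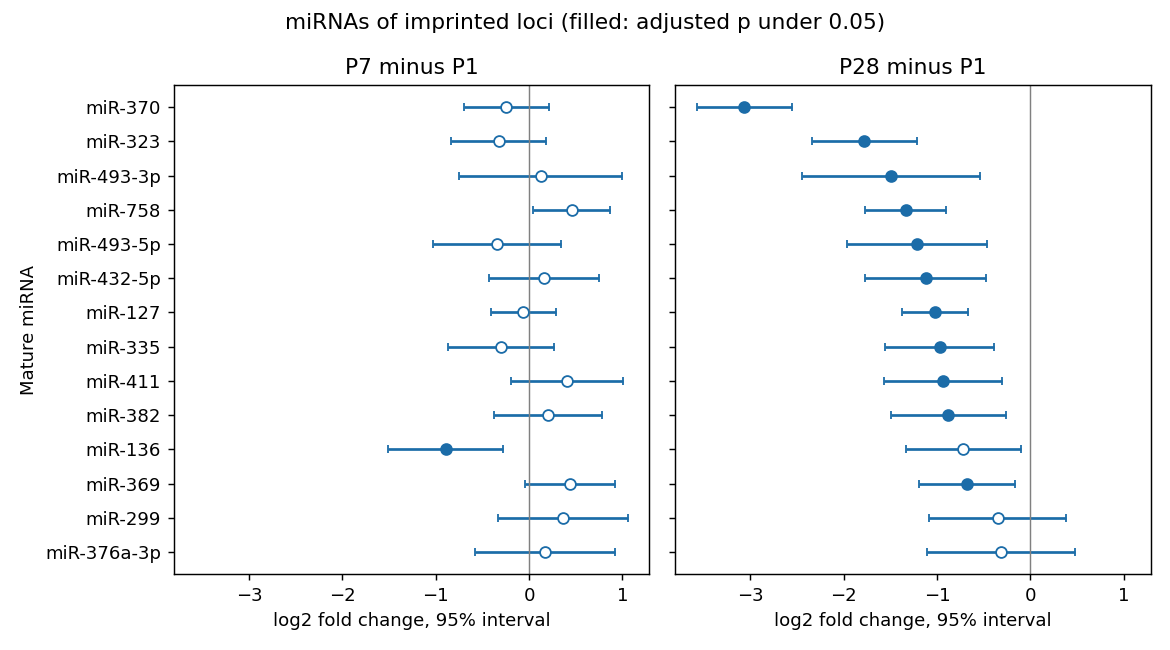
Log2 fold changes (horizontal axes, with 95% intervals of the edgeR fit as bars) of the 14 miRNAs of imprinted loci tested (vertical axis), from P1 to P7 on the left and from P1 to P28 on the right, with filled points for an adjusted p under 0.05. On the left the points lie on both sides of 0 with 1 filled, and on the right all 14 lie below 0 with 11 filled, down to -3.07 for miR-370.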

How the data were processed

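Total RNA libraries (rRNA-depleted, TruSeq Stranded) and small RNA libraries of pig hearts were sequenced by the study. The authors deposited gene-level read counts and, for miRNAs, estimated counts, of which 81.0% were exactly whole (no tolerance) and which were rounded here. The submitters' processing notes name STAR 2.7.9a, MultiQC 1.11 and the build Sscrofa10.2. The counter, its strand setting and the build behind the gene coordinates are not given in the sources used here. The deposited circRNA tables were not used. A single line without counts was left out, and 283 of 4609 unnamed genes were named from a RefSeq-based name table.

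Genes with at least 10 counts in at least 3 libraries were tested with edgeR 4.0.16 (R 4.3.3, limma 3.58.1) by the quasi-likelihood test, with TMM normalisation, all 4 ages in one fit and no covariate. P-values were adjusted by Benjamini-Hochberg over all genes, and an adjusted p under 0.05 was a call. CPM values use TMM-scaled library totals over the tested genes or miRNA entries. The 95% intervals come from the same fit. Shares of all genes with separate groups were counted only with the later age the higher. Correlations used log2 CPM with a prior count of 2. DESeq2 1.42.0, other size factors and filters, the study's thresholds, fits of only the ages compared, a replicate block and leaving out each library were alternatives. Scripts were tested on simulated data.

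Column numbers do not match the numbers in the sample titles, so columns were assigned to ages only. Libraries of an age differed beyond sampling noise (chi-square per degree of freedom at least 14.4). P-values set a difference between ages against the spread among the 3 libraries of an age, estimated over all 4 ages in one fit. Named genes were the members, the measured genes of the imprinted and growth factor lists, up to 4 genes of each other list and the 8 miRNAs with the lowest p from P1 to P28, and the 5 genes most like each member. A few genes outside that rule (chromosomal neighbours, further miRNAs, BUB1B, TNNI3) were named after their values were seen. The members and lists were chosen with earlier results of these data known. Some genes, 1 of them in the mannose 6-phosphate list, are not reported here.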

Additional observations from a re-analysis of the deposited data

How the results depend on the processing

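For the 3 members, the count of calls stayed at 0 under all alternatives but 2. The study's thresholds named 2 between P1 and P3, IGF2R (0.61) and PEG3 (0.73). Without P3-5 these differences were 0.25 and 0.45, both under the fold change threshold of the study. Leaving out P28-5 called 1, PLAGL1, between P7 and P28 (0 to 1 over the fits without a library, log2 fold change 0.38 to 0.61). Without single libraries, IGF2R ranged from -0.0324 to 0.21 between P1 and P7. Between P1 and P28, values that changed sign ranged from -0.0423 to 0.11 for UBE3A, -0.44 to 0.11 for NDN, -0.65 to 1.46 for SLC22A3, -0.44 to 0.33 for PAPPA, -0.0860 to 0.0196 for TRIM28 and -0.59 to 0.0562 for miR-299.

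Calls between P1 and P28 without single libraries ranged from 1 to 3 for other imprinted genes, 0 to 2 for growth factor genes, 0 to 1 for regulators, 0 to 1 for mannose 6-phosphate genes, 0 to 6 for cell cycle entries and 5 to 11 for miRNAs. For miRNAs they ranged from 0 to 1 between P1 and P7 and from 1 to 4 against the later ages. DESeq2 called 1 mannose 6-phosphate gene and 5 cell cycle entries (4 genes, CDC25C under 2 identifiers). With no filter, 0 regulators and, at P7, 2 miRNAs were called. With at least 10 counts in every library, 1 other imprinted gene (MAGEL2 and DIRAS3 were no longer tested) and 1 mannose 6-phosphate gene were called. The study's thresholds named 2 growth factor genes, 0 regulators and 7 cell cycle entries. Fits of only the ages compared called 1 mannose 6-phosphate gene and 2 miRNAs at P7. The cause was not tested.

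The replicate block, built on the column numbers, gave 0 members in each comparison, 2 other imprinted genes (ZNF331 lost its call), 2 cell cycle entries and 10 miRNAs between P1 and P28. The numbers share nothing by the labels, and 5 of 18 same-numbered pairs correlated above 0.1 (-0.19 to 0.33).

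With 3 libraries per age, the intervals of the members leave room for folds from 0.804 to 1.89 between P1 and P28.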
